A study of Mus musculus with 6 samples.

Results

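The genes described here encode the proteins of the cytosolic ribosome. They were chosen by name: every protein-coding mouse gene whose symbol is Rpl or Rps followed by a number and an optional short suffix, together with Rpsa, Rplp0, Rplp1 and Rplp2, with pseudogenes and the Rps6k kinases left out. Of 48709 gene rows in the count files, 83 met the rule, 51 of the large subunit and 32 of the small one. After a filter on low counts, 80 of the 83 were among the 15385 genes tested.

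RNA was sequenced from the dissected neocortex of C57BL/6 mouse embryos at stage E15.5. The 3 Rest_het embryos carried 1 Rest allele without exon 4, written Rest(+/deltaExon4) in the labels, and the 3 WT embryos were wild type. The sample titles call the Rest_het samples KO. Rest, the targeted gene, encodes a transcription factor that silences neuronal genes through the RE1 element in their DNA. Reads of a LacZ sequence occurred only in WT libraries, 27, 51 and 43 of them, and reads of a Cre-ERT2 sequence only in Rest_het libraries, 10, 16 and 17, so the groups differed in these reads as well as in the Rest allele. The labels name separate mice and give no litter, sex or preparation date.

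Ribosomal proteins assemble with ribosomal RNA into a small subunit that reads the mRNA and a large subunit that forms peptide bonds. Their mRNAs are among the most abundant of a cell, begin with a run of pyrimidines known as a 5′ terminal oligopyrimidine (TOP) tract, and are translated together under the control of mTOR signalling. These genes have left many processed pseudogenes in mammalian genomes. In the embryonic neocortex, ribosome production is high in dividing progenitors, and heterozygous loss of several of these genes in people causes Diamond-Blackfan anaemia.

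The libraries held 17835117 to 18426652 gene reads in Rest_het and 19996943 to 20753653 in WT, which do not overlap. Levels are therefore given as CPM, reads in every 1000000 gene reads after TMM scaling. All 13 markers of cortical cells were tested and none was at 0; their summed level was 2966 to 3099 CPM in Rest_het and 3228 to 3513 CPM in WT. Of the 13, 10 had estimates below 0 (median -0.08 on the log2 scale). The 16 neuronal markers summed to 4876 to 5267 CPM in Rest_het and 5560 to 6181 CPM in WT. Of these 16, 12 had estimates below 0 (median -0.12 on the log2 scale). At an unadjusted edgeR p under 0.05, 4 of the 16 were lower in Rest_het, against 4.72% of all genes. Without WT replicate 1, 10 of the 16 were below 0, with a median of -0.06. The choroid plexus and cortical hem list, with 8 of 10 genes tested, summed to 11.3 to 383 CPM in Rest_het and 7.58 to 66.2 CPM in WT. All 8 had estimates above 0 (median 1.41 on the log2 scale), 2 of them at an unadjusted p under 0.05, against 6.97% of all genes. Of the meninges list 6 of 7 were above 0 (median 0.20), with 168 to 470 CPM in Rest_het and 163 to 442 CPM in WT. The 14 apical progenitor genes had 7 below 0 (median -0.01). Of the thalamus and hypothalamus list, 6 of 8 genes were tested and 5 had estimates above 0 (median 0.91 on the log2 scale). At an unadjusted p under 0.05, 4 of these were higher in Rest_het, against 6.97% of all genes. This list summed to 150 to 257 CPM in Rest_het and 145 to 263 CPM in WT. The ventral telencephalon list had 7 of 9 above 0 (median 0.35) and summed to 193 to 345 CPM in Rest_het and 175 to 241 CPM in WT. The endothelial and mural list had 5 of 9 above 0 (median 0.0070) and summed to 318 to 1540 CPM in Rest_het and 215 to 336 CPM in WT, most of it from the pericyte gene Rgs5, with 1430, 1159 and 196 CPM in Rest_het and 216, 152 and 180 CPM in WT. The part these differences in cell markers have in the values below was not tested, and in bulk tissue a change in cell types and a change in RNA per cell cannot be told apart. Rest itself measured 18.1 ± 1.23 CPM in Rest_het and 20.6 ± 0.777 CPM in WT (SD, n = 3 each), over all its exons, which does not check the deletion.

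The sequences below show how the start regions of members vary and where a pair of them differs. The first are the 50 bases around the annotated start (30 before it and 20 after it) of 8 members: the 5 of the 8 smallest p-values below that have a RefSeq promoter entry, and 3 short genes on which 1 library turns out to decide the result. Capitals mark the longest unbroken run of C or T, the letters of a TOP tract.
Rpl10: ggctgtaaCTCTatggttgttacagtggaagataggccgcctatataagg
Rplp0: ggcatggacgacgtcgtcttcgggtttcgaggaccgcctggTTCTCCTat
Rpl5: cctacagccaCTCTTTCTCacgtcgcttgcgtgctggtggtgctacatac
Rpl6: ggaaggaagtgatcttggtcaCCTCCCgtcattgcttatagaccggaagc
Rpl12: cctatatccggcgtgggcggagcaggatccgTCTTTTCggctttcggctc
Rps27: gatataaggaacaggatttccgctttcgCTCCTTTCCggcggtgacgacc
Rps28: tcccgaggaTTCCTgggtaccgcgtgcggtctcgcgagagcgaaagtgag
Rpl38: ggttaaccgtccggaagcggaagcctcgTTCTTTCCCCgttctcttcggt
In GRCm38.p6 these windows are chrX:74270786-74270835 for Rpl10, chr5:115559437-115559486 for Rplp0, chr5:107900498-107900547 for Rpl5, chr5:121204471-121204520 for Rpl6, chr2:32961682-32961731 for Rpl12 and chr11:114668550-114668599 for Rpl38, all on the plus strand, and chr3:90213629-90213678 for Rps27 and chr17:33824543-33824592 for Rps28 on the minus strand. The run reaches across the annotated start in Rps27 and Rpl38, begins 1 base after it in Rpl12, lies upstream of it in Rpl5 and Rpl6 and further downstream in Rplp0. In Rpl10 and Rps28 the longest run is 4 and 5 bases and lies upstream, so these windows do not all hold a tract at the annotated start.

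RefSeq promoter entries were matched for 63 of the 83 members, with 75 entries in all. A run of C or T of at least 8 bases lay in this window in 34 of the 75 entries, 45.3%, against 20.2% of all 32851 entries. One of 3 TOP-like strings (CTTTCC, in other cases CTCTTT, in others again CTTTTC) was found on the sense strand in 29.3% of the members' entries and 5.66% of all. Over the whole 300 bases and on both strands, the ETS string CCGGAAGT was in 16.0% of members' entries against 3.89% of all, and the YY1 string AAGATGGC in 10.7% against 2.75%. TATAAA on the sense strand near the start was in 2.67% against 2.65%. Of the RE1 element, the left half-site TTCAGCACC was found on either strand in 0 of the 75 entries, against 0.371% of all entries. With a share this low over all entries, 75 entries are too few to show whether members differ in it. These matches are descriptions of letters and not of bound sites.

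Shown next is the coding sequence of a pair of paralogs, Rps27 (chromosome 3, 90212522 to 90213651, minus strand) and Rps27l (chromosome 9, 66946086 to 66949516, plus strand), shown because the pair has the same coding length and behaved differently in 1 library. Capitals mark the positions at which they differ.
Rps27: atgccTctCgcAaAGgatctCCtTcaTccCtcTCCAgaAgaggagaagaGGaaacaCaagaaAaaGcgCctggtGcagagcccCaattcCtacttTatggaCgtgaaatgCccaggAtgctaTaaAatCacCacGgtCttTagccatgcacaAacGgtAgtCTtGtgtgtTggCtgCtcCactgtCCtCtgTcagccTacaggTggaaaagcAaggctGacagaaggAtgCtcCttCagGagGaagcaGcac
Rps27l: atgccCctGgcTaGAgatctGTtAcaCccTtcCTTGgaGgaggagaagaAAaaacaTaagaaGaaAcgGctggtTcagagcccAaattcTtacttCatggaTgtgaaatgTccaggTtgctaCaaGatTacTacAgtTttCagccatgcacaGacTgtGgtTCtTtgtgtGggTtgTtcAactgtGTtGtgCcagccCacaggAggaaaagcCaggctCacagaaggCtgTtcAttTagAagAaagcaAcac
Of the 252 coding bases, 60 differed, an identity of 76.2%. The longest stretch without a difference was 11 bases, so a read of 126 bases within these sequences can be told apart between them.

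The comparison of Rest_het with WT asked whether cortical levels of these genes differ with the Rest allele. No member was called at an edgeR adjusted p under 0.05, and none by DESeq2 or limma-voom. The background was small as well: edgeR called 19 of 15385 genes, 0.123%, while limma-voom called 0.13% and DESeq2 0.825%. At an unadjusted p under 0.05, 4 members were lower in Rest_het and 1 was higher, against 4.72% and 6.97% of all genes. The smallest edgeR adjusted p of a member was 0.36. Most members nonetheless had a point estimate below 0, 73 of 80 against 49.1% of all genes tested. The 80 estimates share the same 6 libraries and are not separate observations. The median log2 deviation of the members from their mean over the libraries was -0.09, -0.07 and -0.0062 in Rest_het and 0.10, 0.06 and -0.012 in WT, so the groups overlapped. Their median log2 fold change was -0.11, against 0.01 over all genes. The median SE of a single member's log2 fold change was 0.08, so a typical member's estimate lay little more than 1 SE from 0.

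**Figure D1:**
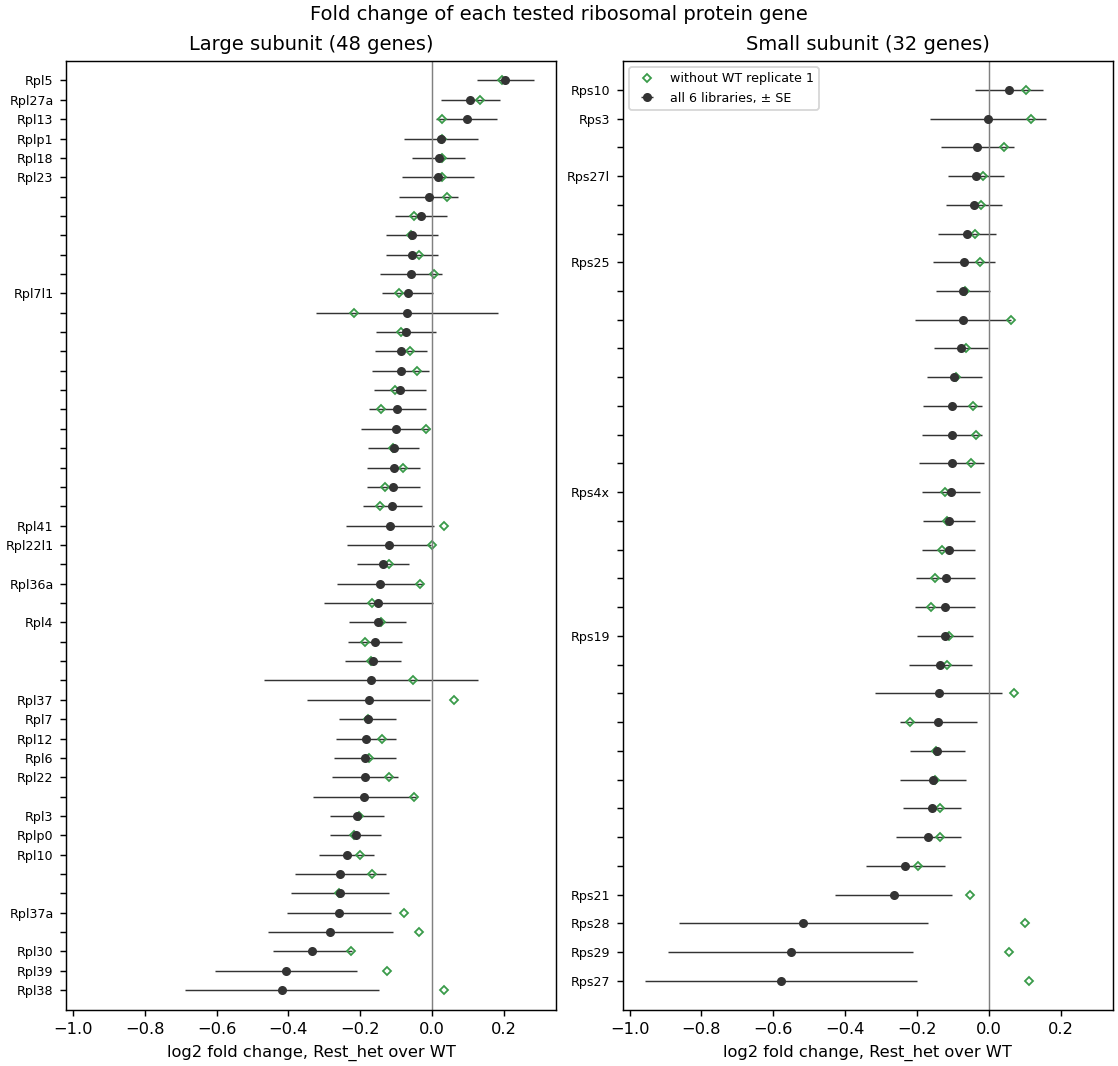
Log2 fold change of Rest_het over WT for each of the 48 large-subunit and 32 small-subunit genes tested, with SE as bars (edgeR, 3 libraries each); open diamonds give the value without WT replicate 1, and names are given for a selection of the genes. Filled points lie below 0 for 73 of 80 genes, and the 3 lowest small-subunit genes, Rps28, Rps29 and Rps27, move above 0 without that library.

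The summed level of the 83 genes was 14353, 14690 and 15371 CPM in Rest_het libraries and 16978, 16109 and 15139 CPM in WT libraries. Means were 14805 ± 519 CPM in Rest_het and 16075 ± 920 CPM in WT (SD, n = 3 each). The groups overlapped, because Rest_het replicate 3 lay above WT replicate 3. As a share of all gene reads, the members took 1.44, 1.48 and 1.62% in Rest_het and 1.71, 1.53 and 1.47% in WT. WT replicate 1 held the highest value of 41 of the 80 tested members, WT replicate 2 that of 29, and WT replicate 3 that of 2. For WT replicate 1 this is 51.25% of members, against 20.6% of all genes tested. By coding length it was 9 of 10 members under 300 bases, 23 of 39 from 300 to under 500 and 9 of 31 of 500 or more. The lowest value was in Rest_het replicate 1 for 33 members and in Rest_het replicate 2 for 25. Without WT replicate 1 the median log2 fold change was -0.07 and 61 of 80 were below 0, against 48.4% of all genes in that fit. Without WT replicate 3 the median was -0.15 and 75 of 80 were below 0.

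The groups did not overlap for 24 members, 22 lower and 2 higher in Rest_het. The lower ones are 27.5% of the members tested, against 8.94% of all genes, and the higher ones 2.5%, against 10.4%. Of the 22, 18 belong to the large subunit, with 48 members tested, and 4 to the small subunit, with 32 tested. Of the 22, 18 also have 500 or more coding bases, and the parts of subunit and length were not tested. The 8 members with the smallest p were all of the large subunit. Their groups did not overlap, which choosing them by p in this same comparison favours.

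Rpl10 encodes a protein joined late to the large subunit, near the site where tRNAs bind. Its level was 120, 122 and 131 CPM in Rest_het and 154, 142 and 144 CPM in WT. Each Rest_het library lay below each WT library, with a log2 fold change of -0.24 (SE 0.08) and an edgeR adjusted p of 0.36. Rpl3, whose protein lies close to the peptidyl transferase centre, had the most reads of the members, not corrected for length, with 844, 843 and 920 CPM in Rest_het and 1013, 1006 and 995 CPM in WT. The WT values lay within a narrow band and the Rest_het values below it; the log2 fold change was -0.21 (SE 0.07) and the edgeR adjusted p 0.37. Rpl30, a small protein of the subunit interface, had 67.8, 69.4 and 72.9 CPM in Rest_het and 101, 76.7 and 87.1 CPM in WT. It had the lowest fold change of the 8, -0.33 on the log2 scale (SE 0.11, edgeR adjusted p 0.36), and -0.23 without WT replicate 1, which was its highest library.

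Rpl7, a protein of the solvent side of the large subunit, had 340, 336 and 379 CPM in Rest_het and 400, 409 and 386 CPM in WT. The nearest values of the groups, in both replicates 3, were close to each other, and the log2 fold change was -0.18 (edgeR adjusted p 0.43). Rpl6, a large-subunit protein, had 315, 293 and 351 CPM in Rest_het and 369, 365 and 356 CPM in WT, again with the replicates 3 closest. Its log2 fold change was -0.19 (edgeR adjusted p 0.44).

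The stalk of the large subunit recruits elongation factors. Rplp0, its base, had 473, 481 and 504 CPM in Rest_het and 559, 572 and 558 CPM in WT. All 3 Rest_het libraries lay below the WT ones, with a log2 fold change of -0.21 (SE 0.07) and an edgeR adjusted p of 0.36. Rpl12, which binds beside Rplp0, had 43.3, 43.5 and 40.8 CPM in Rest_het and 51.3, 47.9 and 45.8 CPM in WT, a log2 fold change of -0.18 with an edgeR adjusted p of 0.43. The acidic stalk proteins did not separate by group. Rplp1 averaged 115 ± 7.42 CPM in Rest_het and 113 ± 12.8 CPM in WT (SD, n = 3 each), and Rplp2 averaged 173 ± 9.44 CPM in Rest_het and 185 ± 19.0 CPM in WT (SD, n = 3 each). With Rplp1 at 0.03 and Rplp2 at -0.10 on the log2 scale, the 4 stalk genes had 3 estimates below 0.

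Rpl5 and Rpl11 form, with 5S ribosomal RNA, the particle that also binds Mdm2 and stabilises p53 when ribosome assembly is disturbed. Rpl5 had 420, 463 and 472 CPM in Rest_het and 387, 409 and 380 CPM in WT. It was the member with the highest fold change, 0.20 on the log2 scale (SE 0.08), with an edgeR adjusted p of 0.40. Its partner Rpl11 lay on the other side, with 153, 156 and 172 CPM in Rest_het and 178, 182 and 178 CPM in WT, a log2 fold change of -0.16 with an edgeR adjusted p of 0.45. The groups did not overlap for either gene. On chromosome 5, Rpl5 (107900502 to 107909005, GRCm38) lies 611 kb from Tgfbr3, which was called and was 17.4-fold higher in Rest_het. Of its exon bases, 46.6% overlap exons of Fam69a on the other strand, and the data hold no strand. Fam69a had 26.8 ± 1.62 CPM in Rest_het and 28.9 ± 2.21 CPM in WT (SD, n = 3 each).

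All 19 called genes lay on chromosomes 1, 5 and 8, which carry 10 of the 80 members. Rplp0 was the other member within 1000 kb of a called gene, 784 kb from Git2, which was 3.41-fold higher in Rest_het while Rplp0 was lower. Of the 10 members on these chromosomes 8 were below 0 (median -0.09 on the log2 scale). Of the 70 on other chromosomes 65 were below 0, with a median of -0.12. The part that neighbouring sequence has in the values of Rpl5 and Rplp0 was not tested.

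**Figure D2:**
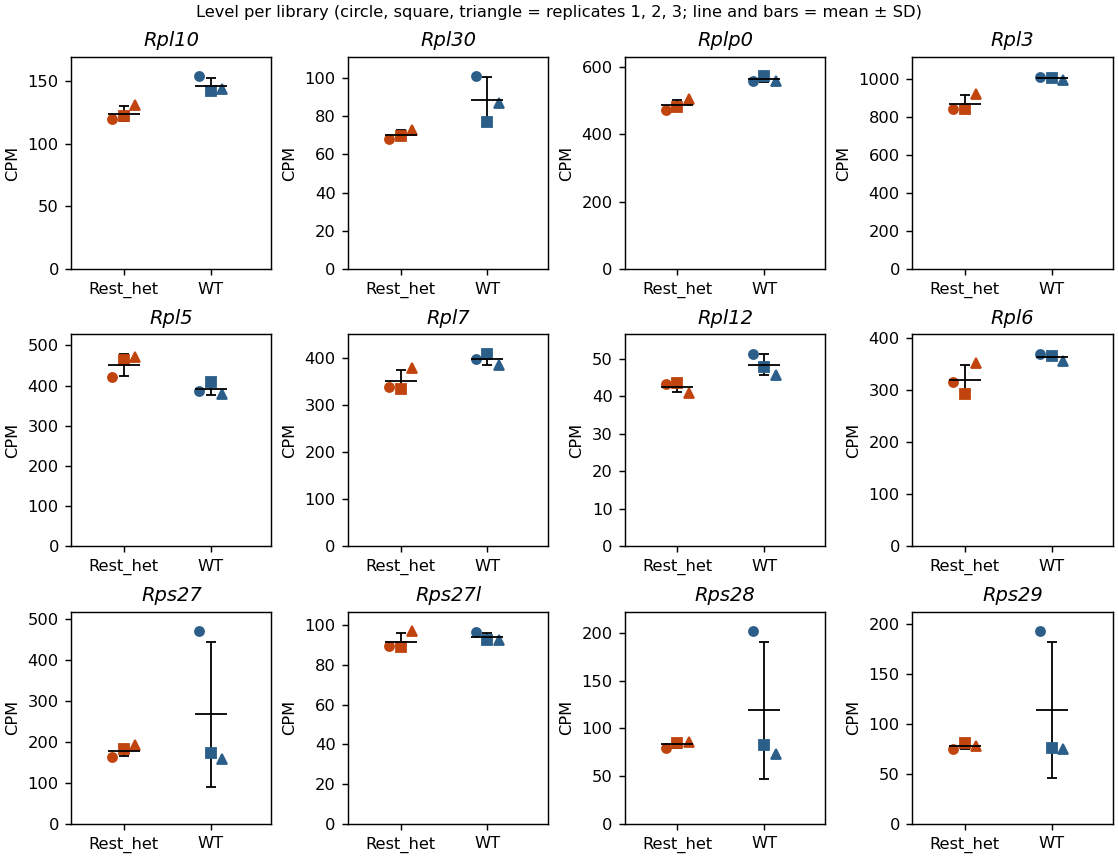
Level in CPM per library of the 8 members with the smallest p and of 4 short members, with Rest_het left of WT; symbols mark replicates 1 to 3, and lines and bars give mean ± SD (n = 3). The groups do not overlap in the upper 8 panels, whose genes were chosen by p in this same comparison. WT replicate 1 stands far above all other libraries for Rps27, Rps28 and Rps29 and not for Rps27l.

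Besides Rpl5, 6 members had estimates above 0. Rpl27a, a large-subunit protein, had 167, 169 and 182 CPM in Rest_het and 166, 148 and 166 CPM in WT, which did not overlap by a small margin. Its log2 fold change was 0.11 (SE 0.08) at an edgeR adjusted p of 0.62. Rpl13 measured 292 ± 5.90 CPM in Rest_het and 273 ± 23.6 CPM in WT (SD, n = 3 each), a log2 fold change of 0.10 with an edgeR adjusted p of 0.67. Rps10 was the small-subunit gene above 0, at 0.06 with an edgeR adjusted p of 0.84. Rplp1, Rpl18 and Rpl23 lay within 0.03 of 0, and the direction of Rps10, Rplp1, Rpl18 and Rpl23 turned when single libraries were left out. All 6 except Rpl27a overlapped between the groups.

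In the small subunit, 31 of 32 estimates were below 0, with a median of -0.11, and without WT replicate 1 the median was -0.06 with 24 below 0. The groups did not overlap for 4 of these 32 genes, all lower in Rest_het, against 8.94% of all genes. One of them, singled out after its values were seen, was Rps23, a protein of the decoding centre. It averaged 135 ± 8.48 CPM in Rest_het and 151 ± 5.61 CPM in WT (SD, n = 3 each), with an edgeR adjusted p of 0.47. Rps25, which is required by several viral internal ribosome entry sites, averaged 877 ± 57.8 CPM in Rest_het and 920 ± 58.6 CPM in WT (SD, n = 3 each) and overlapped. Rps19, the gene most often affected in Diamond-Blackfan anaemia, had 481, 501 and 540 CPM in Rest_het and 561, 563 and 532 CPM in WT. Rest_het replicate 3 lay above WT replicate 3, and the log2 fold change was -0.12 (edgeR adjusted p 0.55). Rps3, at the mRNA entry channel, had 525, 577 and 533 CPM in Rest_het and 632, 605 and 400 CPM in WT, so that WT held both the highest and the lowest values. Its log2 fold change was -0.0022 with an SE of 0.16. Of 20 tested genes linked to Diamond-Blackfan anaemia, 17 were below 0 with a median of -0.11, while without WT replicate 1 the count was 12 and the median -0.05.

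Around the tunnel through which the new protein leaves, all 7 listed genes were below 0, with a median of -0.11. Without WT replicate 1 it was 5 of 7, with a median of -0.12. Rpl4, which lines the tunnel, had 494, 491 and 530 CPM in Rest_het and 569, 587 and 526 CPM in WT. Only the replicates 3 crossed, and the log2 fold change was -0.15 (SE 0.08, edgeR adjusted p 0.48).

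The lowest estimates of all belonged to the shortest members. Rps27, with 252 coding bases, had 164, 182 and 191 CPM in Rest_het and 471, 173 and 158 CPM in WT. WT replicate 2 lay among the Rest_het libraries and WT replicate 3 just below them. WT replicate 1 lay far above them, at 2.71 times the mean of the other 5. The log2 fold change was -0.58 with an SE of 0.38 (edgeR adjusted p 0.56), and it was 0.11 without WT replicate 1. Rps29, which Diamond-Blackfan anaemia also affects, had 74.9, 81.3 and 78.3 CPM in Rest_het and 193, 75.8 and 74.6 CPM in WT. Rps28, a protein of the mRNA exit channel, had 79.2, 84.8 and 86.0 CPM in Rest_het and 202, 82.5 and 72.9 CPM in WT. Both followed the same pattern: -0.55 and -0.52 on the log2 scale with all libraries, and 0.06 and 0.10 without WT replicate 1. Rpl38, which in mice is needed for patterning of the axial skeleton, had 65.5, 69.6 and 70.8 CPM in Rest_het and 141, 69.7 and 64.5 CPM in WT, and its log2 fold change was 0.03 without that library, against -0.42 with it. Rpl39, a tunnel protein, kept its direction, at -0.41 with all libraries and -0.12 without WT replicate 1.

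The values of the paralog printed above lay close together. Rps27l, a p53 target that can take the place of Rps27 in the ribosome, had 89.4, 88.9 and 97.1 CPM in Rest_het and 96.7, 92.6 and 92.9 CPM in WT. WT replicate 1 stood at 1.05 times the mean of the other 5 for Rps27l, and its log2 fold change was -0.04 (SE 0.08, edgeR adjusted p 0.89). The main mRNA is 345 bases for Rps27 and 499 bases for Rps27l in the annotation used.

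A border of 300 coding bases, drawn after these values were seen, splits off 10 tested members: Rpl37, Rpl37a, Rpl38, Rpl39, Rpl41, Rps21, Rps27, Rps27l, Rps28 and Rps29. All 10 were below 0 (median -0.34 on the log2 scale), and without WT replicate 1 the median was 0.03 with 4 below 0. None of the 10 had groups that did not overlap, against 8.94% of all genes lower and 10.4% higher in Rest_het. Their WT replicate 1 value exceeded 1.5 times the mean of the other 5 libraries in 7 of 10, and in 8 of all 80 members, or 10%, against 6.48% of all genes tested. The 39 members of 300 to under 500 coding bases had a median of -0.10, and -0.05 without WT replicate 1. The 31 members of 500 or more had -0.11, and -0.13 without it. Of these 31, 18 were lower in Rest_het without overlap, against 4 of the 39 and 8.94% of all genes tested. The share among all genes of similar coding length was not taken, so no effect of length can be read from these counts.

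Other short genes stood closer to 0 in that library, a difference that was not tested. In WT replicate 1 the median deviation from a gene's mean over the 6 libraries was 0.57 on the log2 scale for the 10 short members, 0.12 for those of 300 to under 500 bases and 0.05 for those of 500 or more. For 261 other protein-coding genes of under 300 coding bases it was -0.02, and for 825 of 300 to under 500 bases -0.05. Across the 80 members, Spearman's rho between coding length and the ratio of WT replicate 1 to the other libraries was -0.53, a description over genes that share the same libraries. WT replicate 1 also had the largest share of read pairs outside annotated genes, 26.9%, against 21.4 to 25.5% in Rest_het and 22.8 to 24.8% in the other WT libraries, and the largest share mapping to several places, 7.48%. The part these have in the values was not tested.

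**Figure D3:**
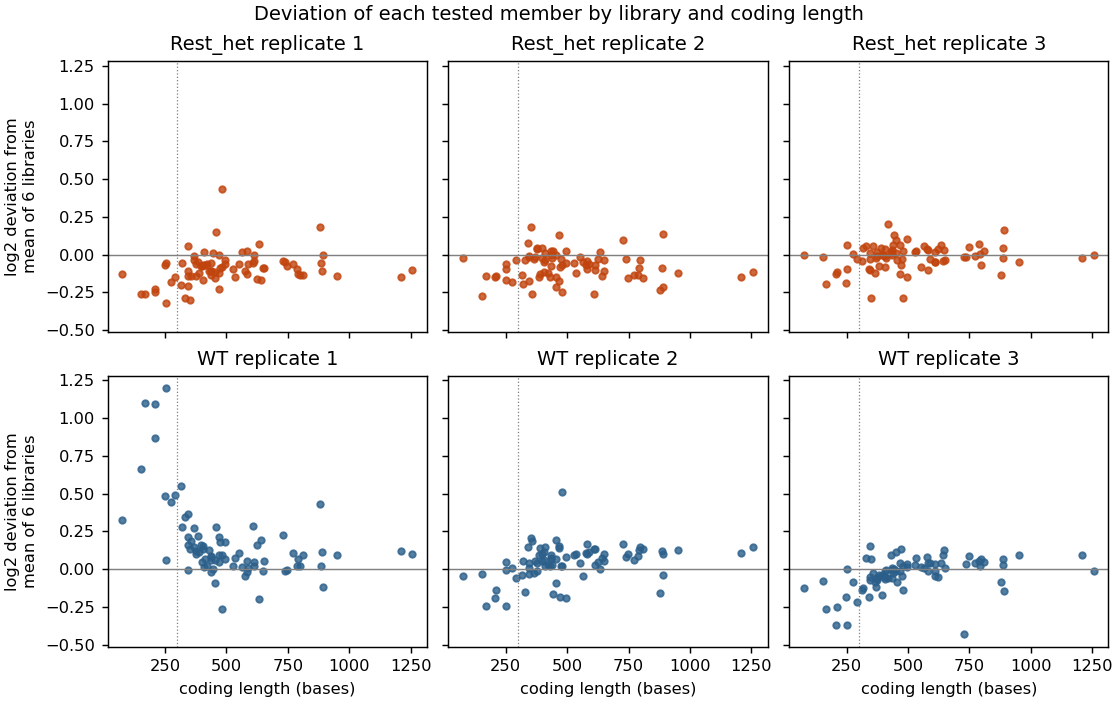
Log2 deviation of each of the 80 tested members from its mean over the 6 libraries, plotted against coding length in bases, with 1 panel per library, Rest_het above WT; the dotted line marks 300 bases. In WT replicate 1 the short members reach over 1 on the log2 scale, with a median of 0.57. Their median lies below 0 in the other 5 libraries, and centring each gene on its mean lowers these when 1 library is high.

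Several members have a paralog of restricted expression. Rpl10l, known from testis, had 0 reads in every library, which allows up to 3 in each. Rpl3l, known from heart and skeletal muscle, had 1 read, in WT replicate 2, and Rpl39l, also known from testis, had 1 read in Rest_het replicate 2 and 2 reads in Rest_het replicate 3. These 3 genes did not pass the count filter, and counts this low allow no comparison. Their counterparts were all expressed: Rpl10 and Rpl3 as above, and Rpl39 at 56.0 ± 5.82 CPM in Rest_het and 74.2 ± 22.8 CPM in WT (SD, n = 3 each). Rpl22 and Rpl22l1, of which Rpl22 is known in mice to repress Rpl22l1, averaged 93.9 ± 3.34 and 27.0 ± 1.15 CPM in Rest_het and 107 ± 9.82 and 29.3 ± 4.09 CPM in WT (SD, n = 3 each). Rpl22 did not overlap between the groups, with a log2 fold change of -0.19 and an edgeR adjusted p of 0.46, whereas Rpl22l1 did, with -0.12 and an edgeR adjusted p of 0.70. Without WT replicate 1 the log2 fold change was -0.12 for Rpl22 and -7.3e-05 for Rpl22l1. Rpl7l1 had a log2 fold change of -0.07, beside -0.18 for Rpl7, and the difference between paralogs was not tested. The X-linked Rps4x averaged 219 ± 16.9 CPM in Rest_het and 235 ± 5.65 CPM in WT (SD, n = 3 each), and Rpl36a, also X-linked, 72.3 ± 6.01 CPM in Rest_het and 79.9 ± 11.4 CPM in WT (SD, n = 3 each). All 4 X-linked members, Rpl10, Rpl36a, Rpl39 and Rps4x, had estimates below 0. They stayed below 0 without WT replicate 1, where Rpl36a was at -0.03 on the log2 scale.

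Levels differed widely among the members. In CPM, which counts reads and takes no account of mRNA length, members had a median of 144 over the 6 libraries, against 12.0 for all tested genes, and 53 of the 80 were in the top 10% of them. The 5 with the most reads, Rpl3, Rps25, Rps3, Rpl4 and Rps19, held 22.3% of the members' summed CPM. Per kilobase of mRNA, Rps25 led with 1557 CPM per kb, then Rps19 with 837, Rpl41 with 826, Rpl3 with 693 and Rps27 with 647, around a median of 210 CPM per kb. The lowest of the tested members were Rpl24 with 1.61, Rpl23a with 14.4, Rps20 with 14.5 and Rpl13a with 17.0 CPM per kb. The value of Rps20 was divided by an annotated mRNA of 3706 bases, and before that division it measured 49.6 ± 5.66 CPM in Rest_het and 58.2 ± 4.81 CPM in WT (SD, n = 3 each).

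The other 3 overlap other genes in the annotation. Of the exon bases of Rpl24, 71.5% lie in exons of Gm28037, a gene model on the same strand that had 0 reads in all 6 libraries. For Rpl13a it is 59.3%, with Gm45713, also on the same strand and with 0 reads. Rpl23a overlaps Tlcd1 on the other strand over 55.4% of its exon bases. A pair of reads that lies in exons of 2 genes is set aside as ambiguous by the counter, so such levels can cover part of a gene. In all, 4 tested members, these 3 and Rpl35, were overlapped over more than 50% of their exon bases and 69 over none. Rpl35, overlapped over 68.3%, stood at 246 CPM per kb, above the median, and the part of overlap in the low levels was not tested.

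Sequence copies are the other limit of counting. Windows of 126 bases, the length of 1 read, were compared with all annotated transcripts of other genes, on both strands. This counts copies elsewhere and also genes that overlap a member at its own place. By this measure 72 of the 83 members shared at least 1 window with another gene, and 11 shared none. For Rpl13a, Rpl24 and Rpl35 the main sharing gene was the overlapping Gm45713, Gm28037 and Wdr38. Rps27 shared 98.2% of its windows, mainly with Rps27rt, a retrocopy. Rps27rt itself measured 1.46, 1.77 and 2.65 CPM in Rest_het and 6.06, 2.21 and 2.16 CPM in WT, so WT replicate 1 was its highest library too. Its log2 fold change was -0.83 (SE 0.46, edgeR adjusted p 0.50), and -0.16 without WT replicate 1. Of their windows, Rpl10 shared 91.2% and Rpl5 89.6%, whereas Rps27l, Rpl39, Rps21 and Rps3 shared none. Pairs of reads from a copied window can be dropped as mapping to several places unless the mate is unique. Those in an overlapping gene are set aside as ambiguous instead, and the shared percent does not separate the cases. Across the 80 members the level per kb had a Spearman rho of -0.12 with the shared percent. The median log2 fold change was -0.14 for the 26 members that shared under 20% of windows, -0.11 for 32 members from 20 to under 60% and -0.12 for 22 members at 60% or more. Without WT replicate 1 these medians were -0.09, -0.07 and -0.06, in the same order. Adding the reads of 268 named pseudogenes to their members left 73 of 80 below 0 with a median of -0.12.

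**Figure D4:**
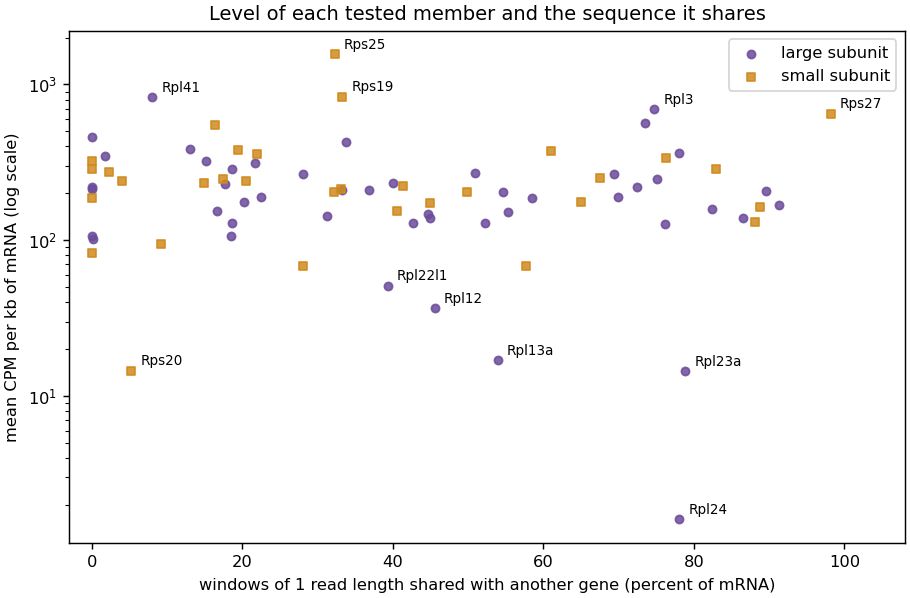
Mean level over all 6 libraries in CPM per kb of mRNA (log scale) against the percent of read-length windows shared with another gene, for the 80 tested members by subunit. Sharing includes copies elsewhere and genes that overlap at the same place. Levels show little relation to shared sequence, and Rpl24, Rpl23a, Rpl13a and Rps20 lie lowest, below 20 CPM per kb.

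Other genes of protein synthesis were set beside the members. Ribosomal components outside the symbol rule had 3 of 4 estimates below 0 (median -0.10 on the log2 scale). Of these, Rack1, a scaffold of the small subunit, averaged 553 ± 29.2 CPM in Rest_het and 596 ± 20.9 CPM in WT (SD, n = 3 each), and Fau, which encodes a fusion of a ubiquitin-like protein with eS30, averaged 121 ± 6.76 CPM in Rest_het and 130 ± 2.41 CPM in WT (SD, n = 3 each). Among 22 other TOP and elongation genes 16 were below 0, with a median of -0.08. Without WT replicate 1 it was 18 of 22 with a median of -0.09, against 61 of 80 with -0.07 for the members. At an unadjusted p under 0.05, 2 of them were lower and 1 was higher. Eef2, the translocase of elongation, averaged 514 ± 31.7 CPM in Rest_het and 585 ± 25.4 CPM in WT (SD, n = 3 each), while Pabpc1, the poly(A) binding protein, averaged 90.8 ± 2.72 CPM in Rest_het and 79.6 ± 2.90 CPM in WT (SD, n = 3 each).

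Initiation factors had 25 of 38 below 0 with a median of -0.07, and ribosome biogenesis genes 28 of 43 with a median of -0.07. Without WT replicate 1 these became 29 of 38 with -0.09 and 30 of 43 with -0.08. In that fit the members stood at -0.07, so they were not lower than these lists. Among the biogenesis genes Ncl, the nucleolar protein nucleolin, lay above 0, with 627, 630 and 608 CPM in Rest_het and 517, 487 and 475 CPM in WT, a log2 fold change of 0.34 (SE 0.07, edgeR adjusted p 0.32). RNA polymerase I genes had 9 of 14 below 0 with a median of -0.06, and 10 of 14 with -0.06 without WT replicate 1. The snoRNA host genes, non-coding TOP transcripts, had 8 of 11 below 0 with a median of -0.28, and 8 of 11 with -0.20 without WT replicate 1. Snhg5 averaged 22.3 ± 2.56 CPM in Rest_het and 27.7 ± 3.71 CPM in WT, and Zfas1 averaged 11.2 ± 0.676 CPM in Rest_het and 13.4 ± 0.341 CPM in WT (SD, n = 3 each). Dedicated chaperones of ribosomal proteins had 6 of 11 below 0 with a median of -0.01, and the mTOR and Myc list 9 of 17 with -0.02. None of these genes was called by edgeR, whose background share was the 0.123% given above.

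Large complexes of other kinds lay nearer to 0. The mitochondrial ribosome had 34 of 76 below 0 (median log2 fold change 0.02), the proteasome 19 of 35 with -0.04 and nuclear genes of oxidative phosphorylation 36 of 73 with 0.00, against 73 of 80 with -0.11 for the cytosolic ribosome. Without WT replicate 1 these became 47 of 76 with -0.03 for the mitochondrial ribosome, 24 of 35 with -0.06 for the proteasome and 30 of 73 with 0.04 for oxidative phosphorylation, against 61 of 80 with -0.07. The differences between lists were not tested.

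**Figure D5:**
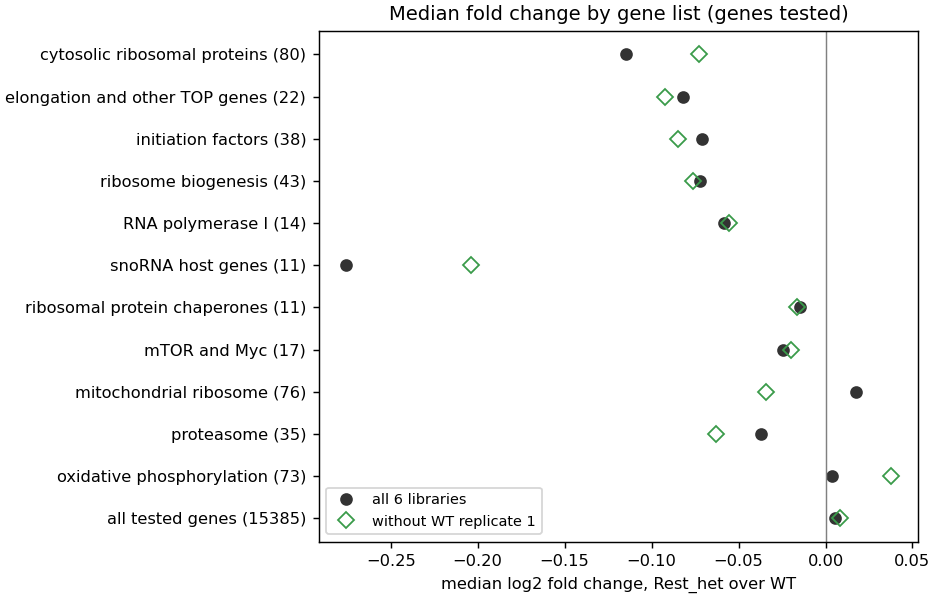
Median log2 fold change of Rest_het over WT for each gene list, with the number of genes tested in parentheses; filled circles use all 6 libraries and open diamonds leave out WT replicate 1. The cytosolic ribosomal proteins lie at -0.11, or -0.07 without that library, and the snoRNA hosts lowest at -0.28. Without that library the elongation and other TOP genes lie at -0.09, initiation factors at -0.09 and ribosome biogenesis at -0.08.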

How the data were processed

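Total RNA of 6 embryos was primed with oligo dT, extended by template switching and amplified for 12 PCR cycles, and 125 pg of cDNA was tagmented with Nextera XT and read in pairs of 126 bases, per the labels' protocols. No strand and no molecular identifier is kept this way, and PCR copies count as reads. The deposited read counts per gene are whole numbers; per the submitters' processing notes, the authors used STAR 2.5.2a and the build GRCm38.p4. The unstranded counts were analysed. A second deposited table, for which the same notes name DESeq2, gives a normalized signal that equalled the count over 1 size factor per library (relative tolerance 1e-06) and served as an alternative.

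Rows that name no gene (unmapped, several places, no gene, ambiguous; 1.21 to 1.45%, 6.29 to 7.48%, 21.4 to 26.9% and 2.54 to 2.85% of read pairs) stayed out of library sizes. Symbols, transcripts and exons came from the GENCODE annotation of GRCm38, promoter sequences from RefSeq (GRCm38.p6). Counts were fitted over all genes with edgeR 4.0.16 (quasi-likelihood test, TMM, genotype as the single term, filterByExpr at 10 counts and 15 in total) and adjusted by Benjamini-Hochberg, with a call at 0.05. Each SE was derived from the F statistic as the size of the log2 fold change over its square root. SD is over 3 libraries. CPM per kb uses the shortest of the principal transcripts with the longest coding sequence. The pipeline was tested on simulated data.

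The members and lists were chosen with earlier results of these data known. Named were the 8 members with the smallest p, the 5 highest in CPM, those above 0, paralog pairs and untested members; from other lists, up to 3 genes with the smallest p, of which the text gives some. The members of under 300 coding bases, those overlapped by other genes and a few marked as such were chosen after their values were seen. For 1 small-subunit member no result is reported here. Same-numbered libraries did not deviate together (correlations of 0.01, 0.04 and -0.14), so replicate numbers were not taken as pairs. Alternatives were other scalings, filters and tests, the replicate block, Xist as a covariate, pseudogene reads added, and each library left out.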

Additional observations from a re-analysis of the deposited data

Results flagged for a closer look

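Reads of 2 transgene sequences, which the comparison of genotypes does not use, occurred in a single group each. Cre-ERT2 had 43 reads in the 3 Rest_het libraries (10, 16 and 17) and 0 in WT. LacZ had 0 reads in Rest_het and 121 in the 3 WT libraries (27, 51 and 43). The labels name neither sequence, and its relation to the levels of the ribosomal protein genes was not tested.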

How the results depend on the processing

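No member was called under any of the 20 alternatives, single libraries left out among them; the lowest adjusted p of a named member under any of them was 0.24. The median log2 fold change was -0.045 with no scaling beyond total gene reads, where the median of all genes was 0.07, and -0.15 to -0.07 with single libraries left out; 61 to 75 members were then below 0. Among members of at least 300 coding bases, a border set after the data were seen, the median was -0.11, or -0.09 without WT replicate 1. The summed level ran from 14522 to 15031 CPM in Rest_het and from 15624 to 16544 CPM in WT with single libraries left out. The replicate block left a median of -0.11, 72 members below 0 and 6 genes called of all tested; the numbers pair no samples by the labels. Over all genes, beside the 19 called by the edgeR test, 107 were called with no count filter, 127 with DESeq2 and 12 to 35 with single libraries left out.

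Of 660 recomputed values of 33 named members, 26 turned in direction, in 13 members. With upper-quartile factors Rpl18 stood at -1.4e-05 and Rpl23 at -0.0012. With no scaling, Rpl7l1 stood at 0.0014, Rps27l at 0.034 and Rps3 at 0.064. Rps3 was 0.025 with limma-voom, 0.020 with limma on the deposited values plus 1 or plus 10, 0.025 with the replicate block and 0.00028 with Xist as a covariate. With single libraries left out, the ranges were -0.0020 to 0.050 for Rpl18, -0.084 to 0.082 for Rpl23, -0.055 to 0.11 for Rplp1, -0.020 to 0.10 for Rps10 and -0.18 to 0.12 for Rps3. The short members that turned did so without WT replicate 1: Rpl37 ranged from -0.31 to 0.062, Rpl38 from -0.62 to 0.032, Rpl41 from -0.20 to 0.032, Rps27 from -0.85 to 0.11, Rps28 from -0.77 to 0.10 and Rps29 from -0.78 to 0.056. The cause was not tested. With 3 libraries a group the log2 fold change of a member had a median SE of 0.08, and PCR copies were counted as reads.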
